A study of Mus musculus with 24 samples.

Results

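The change described here is the one in mammary glands of NZB mice between lactation days 14 and 21. Its members are the 6 glands whose labels name the genotype NZB and lactation day 21 or day 14, 3 mice on each day, of 24 samples in the series. Polyadenylated RNA of the inguinal glands of female mice was sequenced, from animals of 2 genotypes, labelled BL/6 NZB and BL/6 C57, without lactation and on lactation days 8, 14 and 21. Both genotypes share the BL/6 nuclear background, and these names are used for strains that differ in their mitochondrial DNA. The labels give no treatment, and mouse age and litter size were not given in the sources used here. Each sample is whole gland tissue, so it holds secretory epithelium, myoepithelium, fat, stroma, vessels, blood and immune cells together. In such bulk samples fewer cells of a type and less RNA per cell cannot be told apart.

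A lactating gland is dominated by alveolar cells that secrete caseins, whey proteins, lactose and lipid droplets wrapped in membrane, under control of prolactin through the transcription factor STAT5. When milk is no longer removed the gland involutes: a first phase, in which STAT3 is active, milk genes fall, lysosomal proteases and acute phase proteins rise and alveolar cells die, is followed by a phase in which proteases remodel the matrix and fat cells refill the pad. Pups begin to take solid food in the third week, when the demand for milk declines.

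The 6 NZB glands had 14814000 to 18870000 reads assigned to genes on day 21 and 20574000 to 23332000 on day 14, rounded. Counts from the paired read files of a mouse differed by at most 0.36% and were averaged. The glands carried the defining transcripts of lactating epithelium on both days. In the genes with the largest changes 1 gland stood apart from its group. NZB day 14 mouse 3 was the highest of the 3 day 14 mice in 10 of the 10 genes with the largest increases. It was the lowest in 9 of the 10 with the largest decreases. Its median log2 distance from the mean of the other day 14 mice was 2.79 over the 10 increases and -0.65 over the 10 decreases. Elsewhere other mice deviated. Day 14 mouse 1 lay furthest from the day 14 mean in the B cell, T and NK cell and blood gene lists (median log2 distance 1.48, 1.06 and 0.63). Calls lost without 1 mouse, NZB day 14 mouse 3 included, are given beside the results for genes named there. Those of other list members are not all given. Another feature concerned day 21, in CPM outside the milk protein genes, a scale defined below. The 6 listed skeletal muscle genes summed to 278, 898 and 9.78 CPM on day 21, against 3.86, 10.8 and 5.57 CPM on day 14. Only 4 of the 6 were high enough to be tested. Muscle transcripts were thus high in day 21 mice 1 and 2 and near the day 14 range in mouse 3. The actin gene of muscle, Acta1, had 78.9, 226 and 1.02 CPM on day 21, against 0.77, 2.25 and 0.33 CPM on day 14. The part of muscle RNA in the other results was not tested.

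Milk protein transcripts took a much smaller share of the RNA on day 21. Levels are counts per 1000000 reads (CPM). Transcripts of 8 genes, the caseins Csn1s1, Csn1s2a, Csn1s2b, Csn2 and Csn3, the whey protein genes Wap and Lalba, and the mucin-like Glycam1, made up 26.9%, 14.9% and 22.1% of all counts in the NZB day 21 glands, against 69.5%, 68.6% and 63.3% in the NZB day 14 glands. All 3 day 21 glands lay below every day 14 gland. The mean share was 21.3% ± 6.03 on day 21 and 67.1% ± 3.31 on day 14 (SD, n = 3 each), a difference of -45.8 percentage points (2-sided exact permutation p = 0.1, the smallest that 3 against 3 allows). NZB day 8 glands held 70.5% ± 1.39 and non-lactating NZB glands 1.27% ± 0.448 (SD, n = 3 each), so the day 21 glands stood between the lactating and the non-lactating level. In C57 glands the share was 65.8% ± 7.89 on day 21 and 65.8% ± 6.29 on day 14 (SD, n = 3 each), with a 2-sided exact permutation p of 1.0.

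**Figure D1:**
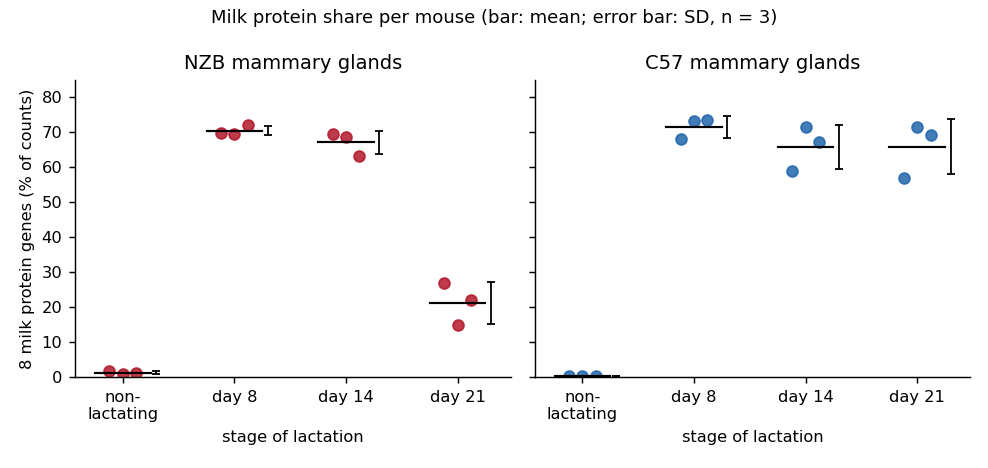
Share of all counts in 8 milk protein genes (y axis, percent) by stage of lactation (x axis) in NZB glands, left, and C57 glands, right. Each point is 1 mouse, the bar is the mean and the error bar the SD of 3 mice; NZB day 21 glands sit at 14.9% to 26.9%, below the 63.3% to 69.5% of NZB day 14 glands, while the C57 groups of days 21 and 14 overlap.

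CPM sum to 1000000 in each sample, so the CPM of other genes move when the milk share moves. On the deposited scale the median gene changed by 1.45 on the log2 scale, and 93.6% of 14208 tested genes were called, 92.5% higher and 1.05% lower. With the 8 milk protein genes left out and the rest rescaled to 1000000, called the non-milk scale below, the median gene stood at 0.43. On a scale set by the median ratio of the genes (median-of-ratios) it stood at 0.03, a shift of 0.398 from the non-milk scale. Genes were tested with limma on log2(CPM + 1) of the 6 glands on the non-milk scale, with Benjamini-Hochberg adjustment and a threshold of 0.05. Levels below are CPM on the non-milk scale unless another is named, given for mice 1, 2 and 3 of each day in NZB glands unless C57 is named. A change near 0.43 on that scale is the change of the median gene, and counts on the median-of-ratios scale are given beside those on the non-milk scale.

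On the deposited scale, which is the one used for milk protein genes, 6 of the 8 fell, beside 1.05% of all genes called lower. Csn2 had 111639, 47498 and 56889.6 CPM in the NZB day 21 glands, against 265914, 253010.3 and 245035 CPM in the NZB day 14 glands, with Csn2 encoding beta-casein (log2 change -1.92 ± 0.76 (SE), adjusted p = 0.0268). Whey acidic protein, Wap, had 22281, 18109 and 43724 CPM on day 21, against 75504, 108734 and 84677 CPM on day 14 (log2 change -1.77 ± 0.61 (SE), adjusted p = 0.013). No day 21 gland reached the lowest day 14 gland in either gene. The largest fall was that of the casein Csn1s2a, at 17107, 7562 and 13416 CPM on day 21, against 90351, 86696 and 79182 CPM on day 14 (log2 change -2.83 ± 0.55 (SE), adjusted p = 0.000232), followed by Csn1s2b (log2 change -2.10 ± 0.49, SE). Lalba, the alpha-lactalbumin that lets galactosyltransferase make lactose, fell least of the called genes, at 700.1, 531 and 565 CPM on day 21, against 1096, 1049 and 1111 CPM on day 14 (log2 change -0.87 ± 0.25 (SE), adjusted p = 0.00397). Glycam1 went the other way without passing the test, with 7923, 3637 and 5796 CPM on day 21, against 3725, 3523 and 3423 CPM on day 14 (log2 change 0.63 ± 0.37 (SE), adjusted p = 0.111), and counted per 1000000 reads outside the 8 genes its log2 change was -0.63. Per 1000000 reads outside the 8 genes, 5 of 8 passed the test, all lower, with a median log2 change of -2.82. Csn2 was not among the 5 (log2 change -3.18 ± 1.24 (SE), limma adjusted p = 0.0708). Leaving out NZB day 14 mouse 2 or 3 left 3 of the 8 called on the deposited scale. Leaving out NZB day 21 mouse 2 or NZB day 14 mouse 1, 2 or 3 ended 1 or more of the calls for Csn2 and Wap (adjusted p 0.0517 to 0.14).

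STAT5 and STAT3 bind the same kind of DNA element, written TTCNNNGAA, which reads the same on both strands. Among the 250 bases before the gene start (RefSeq, GRCm38.p6) the element was present in 3 of 6 milk protein genes with an entry and in 7.02% of all 32841 promoters. Counted by gene, it was present in 8.95% of genes that fell, 7.68% of genes that rose and 7.34% of all tested genes with an entry. A gene with several promoters counted once if any of them held the element, so these shares and the 7.02% are not the same measure. The promoters of 3 milk protein genes and of Socs3, a feedback inhibitor of cytokine signalling described below, are shown because they hold it, with the match in capitals. Their positions are chr5:87665958-87666207, plus strand for Csn1s1, chr5:87699426-87699675, minus strand for Csn2, chr15:103565082-103565331, minus strand for Glycam1 and chr11:117969367-117969616, minus strand for Socs3, each read 5′ to 3′ along the gene.
Csn1s1: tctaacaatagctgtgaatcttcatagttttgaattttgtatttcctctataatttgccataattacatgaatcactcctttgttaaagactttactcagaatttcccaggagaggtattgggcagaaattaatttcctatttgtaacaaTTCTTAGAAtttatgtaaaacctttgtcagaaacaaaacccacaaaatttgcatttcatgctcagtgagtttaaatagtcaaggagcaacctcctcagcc
Csn2: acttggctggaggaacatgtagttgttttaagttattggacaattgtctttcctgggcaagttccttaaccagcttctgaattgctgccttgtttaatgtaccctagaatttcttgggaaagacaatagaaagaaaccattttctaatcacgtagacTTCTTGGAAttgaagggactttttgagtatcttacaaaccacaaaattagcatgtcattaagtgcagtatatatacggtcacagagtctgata
Glycam1: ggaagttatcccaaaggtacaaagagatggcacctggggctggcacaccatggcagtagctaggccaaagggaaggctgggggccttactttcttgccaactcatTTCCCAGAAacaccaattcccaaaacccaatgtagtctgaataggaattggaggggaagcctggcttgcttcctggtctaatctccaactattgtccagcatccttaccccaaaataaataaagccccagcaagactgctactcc
Socs3: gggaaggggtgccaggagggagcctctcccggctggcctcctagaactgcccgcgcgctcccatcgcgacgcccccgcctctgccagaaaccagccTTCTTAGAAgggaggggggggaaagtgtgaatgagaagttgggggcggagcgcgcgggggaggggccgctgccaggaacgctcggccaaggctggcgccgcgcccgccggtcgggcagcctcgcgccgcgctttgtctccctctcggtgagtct
Counted from the gene start, the match begins at base -100 in Csn1s1, -93 in Csn2, -145 in Glycam1 and -154 in Socs3. Of these 4 genes Csn2 was called lower, on the deposited scale alone, and Socs3 higher on the non-milk scale. Csn1s1 and Glycam1 passed no test on the deposited scale.

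Across all genes 5498 of 15162 changed on the non-milk scale (36.3%), of which 4633 rose (30.6% of those tested) and 865 fell (5.71%). On the median-of-ratios scale 944 rose (6.23%) and 1589 fell (10.5%). All 944 and all 865 were called in the same direction on both scales, so 1809 genes changed on both. Leaving out 1 mouse left 2483 to 4793 calls on the non-milk scale, with 2483 without NZB day 14 mouse 2 and 2659 without NZB day 21 mouse 2.

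The 10 genes with the largest decreases on the non-milk scale had various roles. Slc34a2, the sodium and phosphate carrier that supplies milk with phosphate (GENCODE M21, GRCm38, chr5:53038081-53071664, plus strand), had 156, 46 and 30.6 CPM on day 21, against 5792, 5210.1 and 2834 CPM on day 14 (log2 change -6.16 ± 0.52 (SE), adjusted p = 0.000437). Atp2b2, the plasma membrane calcium pump that moves calcium into milk (chr6:113743831-114042613, minus strand), had 18.3, 19.1 and 16.8 CPM on day 21, against 1232, 2029.8 and 491 CPM on day 14 (log2 change -5.81 ± 0.41 (SE), adjusted p = 0.000222). Both genes were lower in every day 21 gland than in any day 14 gland, and NZB day 14 mouse 3 was the lowest of its group in both. Lao1, an L-amino acid oxidase of milk that produces hydrogen peroxide, had 866, 208 and 326 CPM on day 21, against 13230.3, 12162 and 9071 CPM on day 14 (log2 change -4.86 ± 0.47 (SE), adjusted p = 0.00064). Ccl28, a chemokine that draws antibody-secreting cells to the lactating gland, had 129, 25.5 and 44.9 CPM on day 21, against 1067, 1093 and 825 CPM on day 14 (log2 change -4.19 ± 0.47 (SE), adjusted p = 0.00116). In Lao1 and Ccl28 day 21 mouse 1 kept more transcript than mice 2 and 3, though far less than any day 14 gland. Olah, the thioesterase that releases medium-chain fatty acids from fatty acid synthase, had 108, 51.2 and 30.3 CPM on day 21, against 849.7, 1059 and 571 CPM on day 14 (log2 change -3.83 ± 0.41 (SE), adjusted p = 0.000964). Pthlh, the parathyroid hormone-related peptide that the lactating gland releases to mobilise bone calcium, had 4.86, 4.41 and 2.93 CPM on day 21, against 129, 54.4 and 45.8 CPM on day 14 (log2 change -3.80 ± 0.36 (SE), adjusted p = 0.000645). The remaining members of the 10 were the gasdermin gene Gsdmc (-4.29 ± 0.39), the proton and potassium pump Atp12a (-4.21 ± 0.24), the corticotropin-releasing hormone receptor Crhr1 (-4.05 ± 0.43) and Cidea, which controls lipid droplets and their secretion (-3.82 ± 0.26), as log2 change ± SE. In all 10 the groups did not overlap, as the naming rule requires, and 8.0% of tested genes had day 21 glands all below the day 14 glands. All 10 were called on the median-of-ratios scale too. Gsdmc has close copies next to it in the mouse genome, and reads shared among them can be assigned to either.

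**Figure D2:**
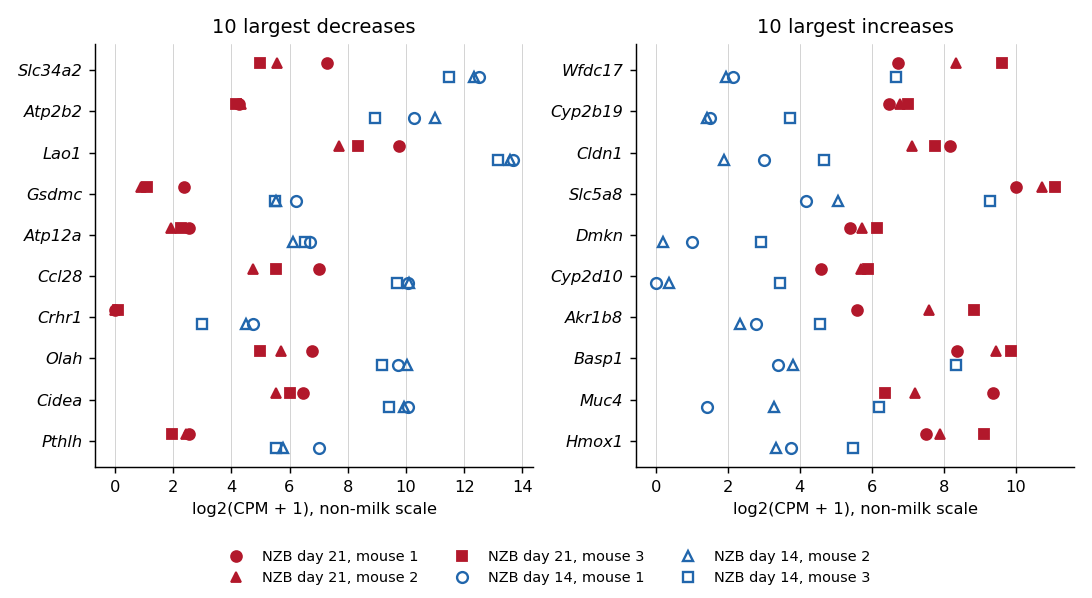
Level of the 10 genes with the largest decreases, left, and the 10 with the largest increases, right, in each NZB gland, as log2(CPM + 1) on the non-milk scale (x axis). Filled red symbols are day 21 mice and open blue symbols day 14 mice, with 1 shape per mouse number; the groups do not overlap in any of the 20 genes, and the open square, day 14 mouse 3, lies nearest to the day 21 glands in all 10 genes at the right.

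The 10 genes with the largest increases were likewise of various roles. Cldn1, a tight junction protein (chr16:26356642-26371841, minus strand), had 288, 139 and 217 CPM on day 21, against 6.95, 2.68 and 24.5 CPM on day 14 (log2 change 4.51 ± 0.58 (SE), adjusted p = 0.00192). Slc5a8, a sodium-coupled carrier of lactate and other monocarboxylates, had 1028, 1687 and 2169 CPM on day 21, against 16.9, 32.4 and 628 CPM on day 14 (log2 change 4.43 ± 1.06 (SE), adjusted p = 0.0139). NZB day 14 mouse 3 was far above the other 2 day 14 mice in Slc5a8 and above them in Cldn1. Hmox1, the haem oxygenase induced by haem and oxidative stress, had 179, 235 and 561 CPM on day 21, against 12.5, 9.09 and 43.2 CPM on day 14 (log2 change 3.98 ± 0.55 (SE), adjusted p = 0.00235). Each of these 3 genes was higher in every day 21 gland, and in Hmox1 day 21 mouse 3 stood above the other 2. Cyp2b19, a cytochrome P450 gene expressed in keratinocytes, had 88.1, 109.8 and 128 CPM on day 21, against 1.83, 1.69 and 12.3 CPM on day 14 (log2 change 4.54 ± 0.53 (SE), adjusted p = 0.00127). Wfdc17, a secreted four-disulfide core protein, had 106, 326 and 789 CPM on day 21, against 3.44, 2.82 and 101 CPM on day 14 (log2 change 4.65 ± 1.16 (SE), adjusted p = 0.0155). Within the day 21 group Wfdc17, Akr1b8 and Hmox1 were highest in mouse 3, while Muc4 was highest in mouse 1. Muc4, a membrane mucin of epithelia, had 664, 145 and 81.9 CPM on day 21, against 1.69, 8.74 and 73.2 CPM on day 14 (log2 change 4.01 ± 1.09 (SE), adjusted p = 0.0214), and its call was absent on the median-of-ratios scale (adjusted p = 0.0614). The other 4 were the secreted epidermal protein Dmkn (4.39 ± 0.58), the cytochrome P450 gene Cyp2d10 (4.13 ± 0.79), the aldo-keto reductase Akr1b8 (4.12 ± 0.78) and the membrane protein Basp1 (4.06 ± 1.09, median-of-ratios adjusted p = 0.0576), as log2 change ± SE. Cyp2b19, Cyp2d10, Akr1b8 and Wfdc17 have close relatives in the genome, so their counts are less certain. All 3 day 21 glands lay above the day 14 glands in 43.4% of tested genes. At least 1 of the calls for Slc5a8, Wfdc17, Muc4 and Basp1 was lost without NZB day 21 mouse 1, 2 or 3 or NZB day 14 mouse 1 or 2 (adjusted p 0.0507 to 0.0828). Without NZB day 14 mouse 3 the calls of all 10 held, with log2 changes of 4.63 to 6.20.

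Genes that build milk fat mostly fell relative to other genes outside the milk proteins. All tested genes gave 30.6% higher and 5.71% lower calls on the non-milk scale, and 6.23% and 10.5% on the median-of-ratios scale. Of the genes for the milk fat globule, the membrane-wrapped lipid droplet, 0 of 10 rose and 8 fell on the non-milk scale (median log2 change -1.28), and 0 rose and 9 fell on the median-of-ratios scale (median -1.74), while on the deposited scale 2 rose and 4 fell (median -0.02). Btn1a1, butyrophilin, which joins the droplet to the membrane, had 1715, 1694 and 1599 CPM on day 21, against 6938, 6022 and 5474 CPM on day 14 (log2 change -1.87 ± 0.26 (SE), adjusted p = 0.00236). Xdh, its partner xanthine dehydrogenase, had 2542, 2012 and 1814 CPM on day 21, against 4801, 5274 and 4429.6 CPM on day 14 (log2 change -1.20 ± 0.27 (SE), adjusted p = 0.0114), with a log2 change of 0.06 on the deposited scale. In both genes every day 21 gland lay below every day 14 gland. The fatty acid binding protein Fabp3 fell by more, with 349.9, 184 and 288 CPM on day 21, against 2678, 3470.2 and 1898 CPM on day 14 (log2 change -3.29 ± 0.30 (SE), adjusted p = 0.000551). The folate receptor Folr1 fell too (-2.47 ± 0.21, log2 change ± SE). Plin2, which coats lipid droplets in many cell types, had 1347, 2597 and 3305 CPM on day 21, against 1656, 1717 and 1968 CPM on day 14 and passed no test (log2 change 0.35 ± 0.34 (SE), adjusted p = 0.429; median-of-ratios log2 change -0.11). For fatty acid and lipid synthesis, 2 of 24 rose and 16 fell on the non-milk scale (median log2 change -1.19), and 0 rose and 16 fell on the median-of-ratios scale (median -1.64), while on the deposited scale 9 rose and 7 fell (median 0.07). Fasn, fatty acid synthase, had 4975, 2880.1 and 2692 CPM on day 21, against 8742, 12427 and 6913 CPM on day 14 (log2 change -1.43 ± 0.39 (SE), adjusted p = 0.0217). Larger falls were those of the acyltransferase Agpat1 (-2.07 ± 0.15), the elongase Elovl5 (-3.12 ± 0.28) and the sterol sensor protein Insig1 (-2.61 ± 0.25), as log2 change ± SE. Against this direction the elongase Elovl6 (1.05 ± 0.21) and the acyltransferase Gpam (0.71 ± 0.17) rose on the non-milk scale, and neither was called on the median-of-ratios scale (adjusted p = 0.0702 and 0.347). Without NZB day 21 mouse 2 or 3 or NZB day 14 mouse 1 or 2, the call for Fasn did not hold (adjusted p 0.0566 to 0.0875).

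Cholesterol synthesis genes gave decreases and no increase on either scale outside the milk proteins. Lower calls made up 5.71% of all tested genes on the non-milk scale and 10.5% on the median-of-ratios scale. Of the cholesterol synthesis list, 0 of 23 rose and 15 fell on the non-milk scale (median log2 change -0.74), and 0 rose and 22 fell on the median-of-ratios scale (median -1.18), while on the deposited scale 7 rose and 5 fell (median 0.32). Fdps, farnesyl diphosphate synthase, had 15.8, 17.3 and 14.2 CPM on day 21, against 90.2, 67.8 and 65.8 CPM on day 14 (log2 change -2.16 ± 0.18 (SE), adjusted p = 0.000445). The groups were far apart in this gene, and Idi1 also fell (-2.11 ± 0.21, log2 change ± SE). A sterol response element was searched as TCACNCCAC on both strands. It was present in the 250 bases before the start of 1 of 16 genes of the list with an entry. Counted by gene in the same way, 1.25% of all tested genes held it, and of all single promoters 1.05%.

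Genes for lactose, ion and amino acid supply moved in both directions, beside 30.6% of all genes called higher and 5.71% called lower on the non-milk scale. Of the genes for lactose synthesis, 2 of 13 rose and 4 fell on the non-milk scale (median log2 change 0.04), and 0 rose and 6 fell on the median-of-ratios scale (median -0.42). B4galt1, the galactosyltransferase, had 606, 787 and 735 CPM on day 21, against 3742, 3376 and 1611 CPM on day 14 (log2 change -1.95 ± 0.33 (SE), adjusted p = 0.00427). The glucose carrier Slc2a1 (-1.31 ± 0.22) and the UDP-galactose carrier Slc35a2 (-1.10 ± 0.23) fell as well, as log2 change ± SE. Pgm2 (0.63 ± 0.17) and Gpi1 (0.46 ± 0.14), which act in sugar phosphate metabolism generally, rose on the non-milk scale by about the change of the median gene, and neither was called on the median-of-ratios scale (log2 change 0.19 and 0.01). For ion and water transport, 3 of 18 rose and 9 fell on the non-milk scale (median log2 change -0.35), and 2 rose and 9 fell on the median-of-ratios scale (median -0.80). The zinc carrier of milk, Slc30a2, had 9.62, 13.1 and 16 CPM on day 21, against 56.3, 65.2 and 56.5 CPM on day 14 (log2 change -2.14 ± 0.21 (SE), adjusted p = 0.000684). Its level was lower in every day 21 gland. The calcium sensor of the endoplasmic reticulum Stim2 fell as well (-1.30 ± 0.23). Beside Slc5a8, the members that rose were the water channel Aqp5, with 18.1, 6.48 and 2.86 CPM on day 21, against 0.42, 1.41 and 1 CPM on day 14 (log2 change 2.11 ± 0.52 (SE), adjusted p = 0.0148), and Stim1 (0.74 ± 0.23; median-of-ratios adjusted p = 0.409). For amino acid transport, 3 of 13 rose and 6 fell on the non-milk scale (median log2 change -0.56), and 0 rose and 6 fell on the median-of-ratios scale (median -0.90). Slc7a4 (-2.02 ± 0.23), Slc38a2 (-1.54 ± 0.28), Slc7a2 (-1.48 ± 0.40) and Slc1a4 (-0.65 ± 0.17) fell, while Slc36a1 (0.68 ± 0.18), Slc43a1 (1.43 ± 0.41) and Slc1a5 (1.43 ± 0.42) rose on the non-milk scale and were not called on the median-of-ratios scale. Leaving out NZB day 21 mouse 1, 2 or 3 or NZB day 14 mouse 1, 2 or 3 ended 1 or more of the calls for Pgm2, Gpi1, Stim1, Slc7a2, Slc1a4, Slc36a1, Slc43a1 and Slc1a5 (adjusted p 0.0533 to 0.103).

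Regulators of lactation upstream of the milk genes were called in both directions on the non-milk scale. There 36.3% of all genes were called, 30.6% higher and 5.71% lower. Of the prolactin and STAT5 list, 3 of 14 rose and 3 fell on the non-milk scale (median log2 change -0.12), and 1 rose and 4 fell on the median-of-ratios scale (median -0.50), while on the deposited scale 11 rose and 0 fell (median 1.19). Prlr, the prolactin receptor, had 383, 321 and 253 CPM on day 21, against 299, 285 and 287 CPM on day 14 (log2 change 0.12 ± 0.18 (SE), adjusted p = 0.628), with a log2 change of -0.34 on the median-of-ratios scale. Stat5a had 200.4, 200.4 and 156 CPM on day 21, against 213, 284 and 154 CPM on day 14 (log2 change -0.19 ± 0.23 (SE), adjusted p = 0.53), and its groups overlapped. Stat5b fell, with 124, 123 and 106 CPM on day 21, against 179, 253 and 157 CPM on day 14 (log2 change -0.71 ± 0.20 (SE), adjusted p = 0.0226), and on the deposited scale its log2 change was 0.54. Day 14 mouse 2 had the highest level of both Stat5 genes. Elf5, the transcription factor of alveolar cells, had 556, 686 and 739 CPM on day 21, against 1051, 974 and 807 CPM on day 14 (log2 change -0.52 ± 0.20 (SE), adjusted p = 0.0704; median-of-ratios log2 change -0.97, adjusted p = 0.0141). The kinase Akt1 (-0.79 ± 0.19) and the receptor Erbb4 (-1.86 ± 0.42) fell, and the growth hormone receptor Ghr (1.55 ± 0.30) and the transcriptional regulator Id2 (1.54 ± 0.38) rose (Id2 median-of-ratios adjusted p = 0.0777), as log2 change ± SE. At least 1 of the calls for Stat5b, Akt1 and Id2 was lost without NZB day 21 mouse 2 or 3 or NZB day 14 mouse 2 (adjusted p 0.0539 to 0.0783).

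Genes of the STAT3 pathway were called higher about as often as all genes, of which 30.6% rose on the non-milk scale with a median log2 change of 0.43. Of the STAT3 and cytokine list, 9 of 24 rose and 3 fell on the non-milk scale (median log2 change 0.50), and 2 rose and 5 fell on the median-of-ratios scale (median 0.13). Lif, the cytokine that starts involution in mouse glands, had 8.17, 18.2 and 30.1 CPM on day 21, against 2.11, 3.52 and 7.16 CPM on day 14 (log2 change 1.86 ± 0.47 (SE), adjusted p = 0.0172; median-of-ratios adjusted p = 0.0708). Osmr, the receptor for oncostatin M, had 288, 296 and 208 CPM on day 21, against 27.5, 31.4 and 92.9 CPM on day 14 (log2 change 2.56 ± 0.40 (SE), adjusted p = 0.00335). In both, day 14 mouse 3 was the highest of its group and lay below every day 21 gland. Stat3 itself had 359.6, 430.2 and 385 CPM on day 21, against 204, 254 and 434 CPM on day 14 and passed no test (log2 change 0.47 ± 0.26 (SE), adjusted p = 0.18). The feedback inhibitor Socs3 had 20.7, 44 and 50.1 CPM on day 21, against 2.04, 2.4 and 28.4 CPM on day 14 (log2 change 2.46 ± 0.76 (SE), adjusted p = 0.0336; median-of-ratios adjusted p = 0.107). In Socs3 day 14 mouse 3 exceeded day 21 mouse 1, and in Stat3 it exceeded all 3 day 21 glands. The immediate early gene Egr1 rose (1.70 ± 0.28), and Pim1, a kinase induced by STAT5 and STAT3 (-1.97 ± 0.18), Cebpd (-1.20 ± 0.30) and Nfkbia, the inhibitor of NF-kappaB (-0.76 ± 0.23), fell, as log2 change ± SE. Without NZB day 21 mouse 2 or 3 or NZB day 14 mouse 1, 2 or 3, 1 or more of the calls for Lif, Socs3, Cebpd and Nfkbia did not hold (adjusted p 0.0508 to 0.125).

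Of 3 secreted factors of the fixed set, Igfbp5 and Tgfb3 rose on the non-milk scale and Clu passed no test. Igfbp5, which binds insulin-like growth factors and is a classic marker of involution (chr1:72857932-72874884, minus strand), had 2293, 5269 and 3412 CPM on day 21, against 77.5, 118 and 2131 CPM on day 14 (log2 change 3.67 ± 1.02 (SE), adjusted p = 0.0228). The day 14 values of Igfbp5 differed by more than 10-fold among mice, and without mouse 3 the log2 change was 5.16 (adjusted p = 7.67e-05). Tgfb3, a transforming growth factor induced by milk stasis, had 250.1, 333 and 337 CPM on day 21, against 39.9, 61.4 and 225 CPM on day 14 (log2 change 1.87 ± 0.51 (SE), adjusted p = 0.0215). Both were called on the non-milk scale and not on the median-of-ratios scale (adjusted p = 0.0652 and 0.0935). In both, day 14 mice 1 and 2 lay far below mouse 3. Clu, clusterin, had 4530.0, 2917 and 3498 CPM on day 21, against 2264, 1475 and 3012 CPM on day 14 (log2 change 0.73 ± 0.33 (SE), adjusted p = 0.109), and day 14 mouse 3 exceeded day 21 mouse 2. For cell death, 10 of 27 rose and 0 fell on the non-milk scale (median log2 change 0.57), and 2 rose and 2 fell on the median-of-ratios scale (median 0.13). Among all genes 30.6% rose on the non-milk scale and 6.23% on the median-of-ratios scale, shares not far from those of this list. The death receptor Tnfrsf10b (1.38 ± 0.22), Trp53 (0.97 ± 0.16), the inflammatory caspase Casp1 (1.35 ± 0.31) and the BH3 protein Bcl2l11 (1.03 ± 0.26) led that list, as log2 change ± SE, the last 2 without a call on the median-of-ratios scale. Leaving out NZB day 21 mouse 2 or 3 or NZB day 14 mouse 1 or 2 ended 1 or more of the calls for Igfbp5, Tgfb3 and Bcl2l11 (adjusted p 0.0547 to 0.0921).

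Acute phase and defence genes were called higher about as often as all genes (30.6% on the non-milk scale). Of the list, 7 of 24 rose and 1 fell on the non-milk scale (median log2 change 0.79), and 3 rose and 1 fell on the median-of-ratios scale (median 0.47). Ltf, lactoferrin, an iron-binding protein of milk, had 8082, 10914 and 14937 CPM on day 21, against 1311, 1291 and 6359 CPM on day 14 (log2 change 2.31 ± 0.60 (SE), adjusted p = 0.0183; median-of-ratios adjusted p = 0.0671). Lcn2, lipocalin 2, had 5346, 5259 and 7695 CPM on day 21, against 2715, 1446 and 5093 CPM on day 14 and passed no test (log2 change 1.15 ± 0.45 (SE), adjusted p = 0.0738). Day 14 mouse 3 lay just below the day 21 glands in Lcn2. Cd14, the co-receptor for lipopolysaccharide, had 532, 708 and 1243 CPM on day 21, against 27.9, 39.1 and 581 CPM on day 14 (log2 change 3.15 ± 0.94 (SE), adjusted p = 0.0287; median-of-ratios adjusted p = 0.0882). The lipopolysaccharide-binding protein Lbp had 448, 541 and 492 CPM on day 21, against 275, 272 and 527 CPM on day 14 and passed no test (log2 change 0.53 ± 0.26 (SE), adjusted p = 0.132). In Ltf, Cd14 and Lbp too, day 14 mouse 3 stood far above day 14 mice 1 and 2. Hp, haptoglobin (2.81 ± 0.45), and the protease inhibitor Serpina3n (2.35 ± 0.43) rose and were called on both scales, as log2 change ± SE. The exception was Pigr, the receptor that carries antibodies into milk, with 1429, 847 and 941 CPM on day 21, against 3850.1, 3031 and 3388 CPM on day 14 (log2 change -1.71 ± 0.27 (SE), adjusted p = 0.0035). Prol1, a secreted proline-rich protein of a family of similar genes, which makes its counts less certain, had 3454, 2003 and 2932 CPM on day 21, against 1479, 285 and 1083 CPM on day 14 (log2 change 1.82 ± 0.54 (SE), adjusted p = 0.0275; median-of-ratios adjusted p = 0.117). At least 1 of the calls for Ltf, Cd14 and Prol1 was lost without NZB day 21 mouse 1, 2 or 3 or NZB day 14 mouse 1 or 2 (adjusted p 0.0502 to 0.113).

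Epithelial junction and keratin genes moved in both directions, beside 30.6% of all genes called higher and 5.71% called lower on the non-milk scale. Of the list, 9 of 20 rose and 3 fell on the non-milk scale (median log2 change 1.04), and 7 rose and 3 fell on the median-of-ratios scale (median 0.60). Krt8, a keratin of luminal cells, had 173, 216 and 299 CPM on day 21, against 45.2, 39.6 and 87.4 CPM on day 14 (log2 change 2.03 ± 0.30 (SE), adjusted p = 0.00293). Its partner Krt18 had 156, 242 and 407 CPM on day 21, against 31.4, 47.3 and 121 CPM on day 14 (log2 change 2.12 ± 0.47 (SE), adjusted p = 0.0107). Both were highest in day 21 mouse 3 and, within day 14, in mouse 3. Gjb1, the connexin of secretory alveoli, fell, with 11.1, 7.71 and 7.75 CPM on day 21, against 102, 124 and 108 CPM on day 14 (log2 change -3.52 ± 0.19 (SE), adjusted p = 8.95e-05). Gjb6 (-1.61 ± 0.27) and the claudin Cldn8 (-1.78 ± 0.35) fell too, as log2 change ± SE. Gjb2 had 84.7, 537 and 523 CPM on day 21, against 87.4, 98 and 198 CPM on day 14 and passed no test (log2 change 1.27 ± 0.64 (SE), adjusted p = 0.142). Day 21 mouse 1 stayed at the low end of the day 14 range in Gjb2, below the other 2 day 21 glands. The claudins Cldn1, described above, and Cldn8 were called in opposite directions on both scales.

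Lysosomal genes were called in both directions, beside 30.6% of all genes called higher and 5.71% called lower on the non-milk scale. Of the lysosome list, 20 of 42 rose and 6 fell on the non-milk scale (median log2 change 0.52), and 9 rose and 10 fell on the median-of-ratios scale (median 0.07). Ctsl, cathepsin L, had 475, 627 and 848 CPM on day 21, against 92.7, 94.5 and 248 CPM on day 14 (log2 change 2.28 ± 0.37 (SE), adjusted p = 0.00397). Ctsb, cathepsin B, had 2254, 2286 and 2679 CPM on day 21, against 1492, 1095 and 1639 CPM on day 14 (log2 change 0.79 ± 0.24 (SE), adjusted p = 0.0336). Ctsd, cathepsin D, had 616, 913 and 1306 CPM on day 21, against 378, 382 and 560.5 CPM on day 14 (log2 change 1.06 ± 0.29 (SE), adjusted p = 0.021). Cathepsins B and D were not called on the median-of-ratios scale (adjusted p = 0.365 and 0.187), whereas Ctsl, the membrane proteins Cd63 (2.14 ± 0.28) and Lamp2 (1.33 ± 0.21) and progranulin, Grn (1.13 ± 0.17), were. Members that fell included the hydrolases Galns (-1.19 ± 0.23), Ctsc (-1.19 ± 0.23), Smpd1 (-1.07 ± 0.26) and Man2b1 (-0.50 ± 0.17) and the proton pump subunit Atp6v0a1 (-0.80 ± 0.17). For autophagy, 9 of 24 rose and 3 fell on the non-milk scale (median log2 change 0.61), and 0 rose and 5 fell on the median-of-ratios scale (median 0.17). Bnip3l (0.80 ± 0.15), Atg16l1 (0.73 ± 0.16), Becn1 (0.68 ± 0.15) and Atg12 (0.75 ± 0.18) rose on the non-milk scale, none of them on the median-of-ratios scale, and the cargo receptors Nbr1 (-0.62 ± 0.16) and Tax1bp1 (-0.47 ± 0.15) and Atg9a (-0.45 ± 0.14) fell, as log2 change ± SE. For matrix proteases and their inhibitors, 9 of 20 rose and 0 fell on the non-milk scale (median log2 change 0.88), and 7 rose and 0 fell on the median-of-ratios scale (median 0.49). Stromelysin 1, Mmp3, had 62.4, 69.3 and 109 CPM on day 21, against 15.7, 11.8 and 27.6 CPM on day 14 (log2 change 2.11 ± 0.31 (SE), adjusted p = 0.00283). Timp2, an inhibitor of matrix proteases (1.67 ± 0.29), and the protease Mmp11 (1.56 ± 0.28) rose on both scales. Without NZB day 21 mouse 1, 2 or 3 or NZB day 14 mouse 1, 2 or 3, 1 or more of the calls for Ctsb, Ctsd, Man2b1, Nbr1, Tax1bp1 and Atg9a did not hold (adjusted p 0.052 to 0.138).

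Some nuclear genes of respiration fell and most fatty acid oxidation genes rose on the non-milk scale, and the lists were not tested against each other. All tested genes gave 30.6% higher and 5.71% lower calls on that scale, and 6.23% and 10.5% on the median-of-ratios scale. The 13 tested mRNAs of mitochondrial DNA gave no call on the non-milk scale (median log2 change 0.09) and 1 lower call on the median-of-ratios scale (median -0.36). The cytochrome oxidase subunit mt-Co2 had 1198, 869.9 and 1453 CPM on day 21, against 1647, 1856 and 1673 CPM on day 14 (log2 change -0.58 ± 0.24 (SE), adjusted p = 0.0856; median-of-ratios adjusted p = 0.0289). Day 21 mouse 2 was lowest in mt-Co2, and all day 21 glands lay below the day 14 glands. Of nuclear genes for oxidative phosphorylation, 0 of 41 rose and 11 fell on the non-milk scale (median log2 change -0.26), and 0 rose and 28 fell on the median-of-ratios scale (median -0.68), while on the deposited scale 32 rose and 0 fell (median 0.91). Cox6a1 (-1.16 ± 0.21), Atp5o (-0.80 ± 0.15), Cox5a (-0.91 ± 0.18) and Ndufa1 (-1.03 ± 0.22) led the decreases, as log2 change ± SE. Of fatty acid oxidation genes, 18 of 25 rose and 0 fell on the non-milk scale (median log2 change 0.72), and 6 rose and 1 fell on the median-of-ratios scale (median 0.29). Cpt1a, which admits long-chain fatty acids to mitochondria, had 82, 104 and 103 CPM on day 21, against 9.06, 9.37 and 23 CPM on day 14 (log2 change 2.83 ± 0.32 (SE), adjusted p = 0.00116). The dehydrogenases Acadl (2.19 ± 0.34) and Acads (1.23 ± 0.19) and the reductase Decr1 (1.56 ± 0.24) rose on both scales. Of mitochondrial quality control genes, 5 of 24 rose and 3 fell on the non-milk scale (median log2 change 0.23), and 0 rose and 5 fell on the median-of-ratios scale (median -0.21). The fusion and fission genes Mfn2 (0.79 ± 0.17) and Dnm1l (0.81 ± 0.20) and the chaperone Hspe1 (0.84 ± 0.22) rose on the non-milk scale without a call on the median-of-ratios scale, and the protease subunit Clpx (-1.02 ± 0.15), Ppargc1b (-0.71 ± 0.21) and Sod2 (-0.45 ± 0.14) fell. Sirt3, a mitochondrial deacetylase, had 10.7, 10.6 and 8.84 CPM on day 21, against 11.3, 13.7 and 13 CPM on day 14 (log2 change -0.31 ± 0.21 (SE), adjusted p = 0.262; median-of-ratios log2 change -0.73, adjusted p = 0.0397; deposited scale log2 change 0.78). Leaving out NZB day 21 mouse 1, 2 or 3 or NZB day 14 mouse 1, 2 or 3 ended 1 or more of the calls for Dnm1l, Hspe1, Ppargc1b and Sod2 (adjusted p 0.0508 to 0.14).

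Most redox and iron genes rose on the non-milk scale, while folding and stress genes moved in both directions. On that scale 30.6% of all genes were called higher and 5.71% lower, against 6.23% and 10.5% on the median-of-ratios scale. Of the redox and iron list, 13 of 19 rose and 0 fell on the non-milk scale (median log2 change 1.18), and 3 rose and 0 fell on the median-of-ratios scale (median 0.81). Ftl1, ferritin light chain, had 660.2, 1497 and 2633 CPM on day 21, against 325, 335 and 522 CPM on day 14 (log2 change 1.84 ± 0.44 (SE), adjusted p = 0.0134; median-of-ratios adjusted p = 0.0664). Prdx1, peroxiredoxin 1, had 405, 825 and 1249.5 CPM on day 21, against 220.0, 162 and 236 CPM on day 14 (log2 change 1.87 ± 0.36 (SE), adjusted p = 0.00651). Both were lowest in mouse 1 and highest in mouse 3 within the day 21 group, the order also seen for Hmox1, and Prdx6 rose as well (1.58 ± 0.29). The antioxidant response element was searched as TGAC, any 3 bases and GCA on both strands. It was present in the 250 bases before the start of 1 of 17 genes of the list with an entry. Counted by gene in the same way, 2.62% of all tested genes held it, and of all single promoters 2.48%. For protein folding in the endoplasmic reticulum, 4 of 26 rose and 7 fell on the non-milk scale (median log2 change 0.04), and 0 rose and 10 fell on the median-of-ratios scale (median -0.41). Fkbp11, a folding enzyme of secretory cells, had 2.36, 3.06 and 2.27 CPM on day 21, against 29.2, 55.2 and 32 CPM on day 14 (log2 change -3.43 ± 0.28 (SE), adjusted p = 0.000426). Hspa5, the chaperone BiP, had 141, 127 and 111 CPM on day 21, against 214, 177 and 165 CPM on day 14 (log2 change -0.55 ± 0.17 (SE), adjusted p = 0.031), and on the deposited scale its log2 change was 0.70. Hyou1 (-0.85 ± 0.18) and Manf (-0.66 ± 0.16) fell, whereas Dnajb9 (1.17 ± 0.25), Ern1 (0.64 ± 0.17), Herpud1 (0.80 ± 0.23) and Pdia3 (0.49 ± 0.15) rose on the non-milk scale and were not called on the median-of-ratios scale. For the integrated stress response, 2 of 19 rose and 7 fell on the non-milk scale (median log2 change -0.53), and 0 rose and 10 fell on the median-of-ratios scale (median -0.97). Its transcription factor Atf4 had 144, 143 and 173 CPM on day 21, against 209.7, 183 and 153 CPM on day 14, with overlapping groups (log2 change -0.24 ± 0.17 (SE), adjusted p = 0.292), and its log2 change on the deposited scale was 1.01. Asparagine synthetase, Asns (-1.43 ± 0.17), Aldh18a1 (-2.25 ± 0.25), Ddit4 (-2.23 ± 0.32) and Trib3 (-1.11 ± 0.23) fell, and Gdf15 (2.20 ± 0.75) and Sesn2 (0.78 ± 0.27) rose on the non-milk scale, as log2 change ± SE. Of cytosolic ribosomal protein genes, 1 of 73 rose and 9 fell on the non-milk scale (median log2 change -0.20), and 0 rose and 21 fell on the median-of-ratios scale (median -0.65), while on the deposited scale 71 rose and 0 fell (median 0.99). Rpl7a (-0.56 ± 0.15) and Rpl8 (-0.71 ± 0.19) were among those that fell and Rpl5 (0.85 ± 0.21) was the one that rose. At least 1 of the calls for Ftl1, Hspa5, Manf, Ern1, Herpud1, Pdia3, Gdf15, Sesn2, Rpl7a, Rpl8 and Rpl5 was lost without NZB day 21 mouse 1, 2 or 3 or NZB day 14 mouse 1, 2 or 3 (adjusted p 0.0506 to 0.152).

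**Figure D3:**
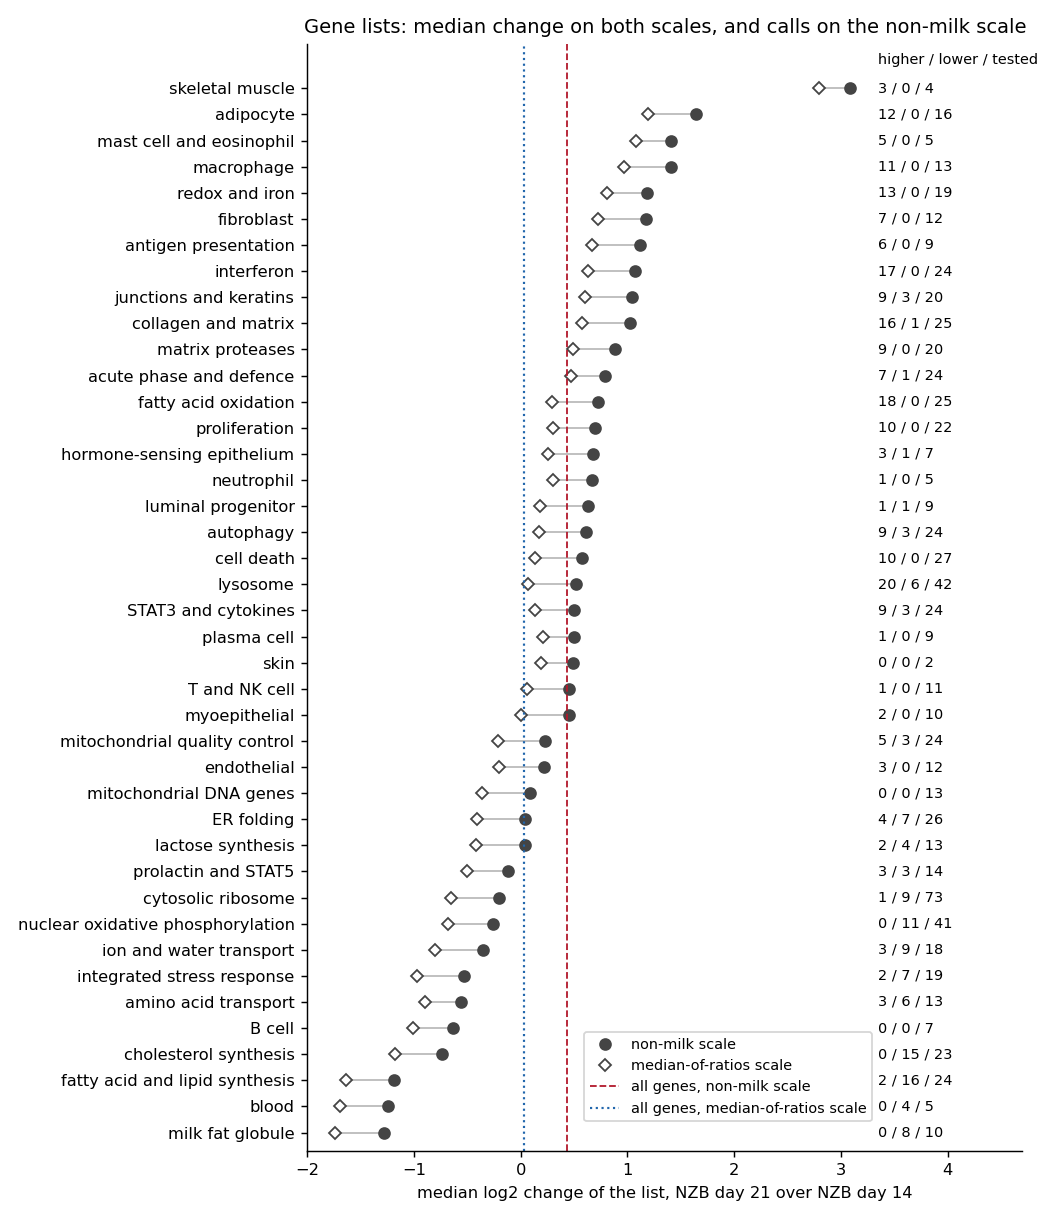
Median log2 change, NZB day 21 over NZB day 14 (x axis), of the tested genes of each of 41 lists (rows), on the non-milk scale (filled circles) and the median-of-ratios scale (open diamonds). Dashed and dotted lines are the medians of all genes on those scales, 0.43 and 0.03, and the figures at the right count genes called higher, called lower and tested on the non-milk scale; milk fat globule, blood, lipid and cholesterol lists lie lowest and skeletal muscle, adipocyte, mast cell and macrophage lists highest.

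Markers of fat and stroma were higher on day 21, most of all in mouse 1. Higher calls made up 30.6% of all tested genes on the non-milk scale and 6.23% on the median-of-ratios scale. Of the adipocyte list, 12 of 16 rose and 0 fell on the non-milk scale (median log2 change 1.64), and 6 rose and 0 fell on the median-of-ratios scale (median 1.19). The summed level of the list was 7669, 2587 and 2711 CPM on day 21, against 1006, 1416 and 1689 CPM on day 14. Lep, the hormone leptin made by fat cells, had 111, 75.7 and 75.1 CPM on day 21, against 16.9, 17.5 and 28.5 CPM on day 14 (log2 change 2.02 ± 0.24 (SE), adjusted p = 0.00139). Plin4, which coats their lipid droplets, had 698, 202 and 209 CPM on day 21, against 44, 66.4 and 67.7 CPM on day 14 (log2 change 2.39 ± 0.43 (SE), adjusted p = 0.00537). Car3, carbonic anhydrase 3, had 2689, 859 and 842 CPM on day 21, against 242, 216 and 364 CPM on day 14 (log2 change 2.22 ± 0.42 (SE), adjusted p = 0.00636). In Plin4, Car3 and Npr3 (2.72 ± 0.50) mouse 1 was highest, well above the others, whereas Lep differed less among the day 21 mice. Of the fibroblast list, 7 of 12 rose and 0 fell on the non-milk scale (median log2 change 1.17), and 1 rose and 0 fell on the median-of-ratios scale (median 0.72). Its summed level was 1435, 527 and 680.4 CPM on day 21, against 351, 439 and 442 CPM on day 14. Mfap5 (1.58 ± 0.26), Dpt (1.54 ± 0.33), Pdgfra (1.31 ± 0.29) and Pi16 (1.67 ± 0.41) rose, and on the median-of-ratios scale Mfap5 alone of these 4 did. Of collagen and matrix genes, 16 of 25 rose and 1 fell on the non-milk scale (median log2 change 1.02), and 4 rose and 1 fell on the median-of-ratios scale (median 0.57). Col12a1 (1.70 ± 0.20), Lox, which cross-links collagen (1.86 ± 0.26), Col5a2 (1.58 ± 0.26) and fibronectin, Fn1 (1.57 ± 0.31), rose on both scales, and tenascin C, Tnc, fell (-1.53 ± 0.34), as log2 change ± SE. Without NZB day 21 mouse 2 or NZB day 14 mouse 2, the call for Pi16 did not hold (adjusted p 0.0539 to 0.0596).

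Most macrophage markers rose, and few lymphocyte markers passed the test, beside 30.6% of all genes called higher on the non-milk scale and 6.23% on the median-of-ratios scale. Of the macrophage list, 11 of 13 rose and 0 fell on the non-milk scale (median log2 change 1.41), and 9 rose and 0 fell on the median-of-ratios scale (median 0.97). Its summed level was 1189, 656 and 688 CPM on day 21, against 289.8, 219.8 and 318 CPM on day 14. The mannose receptor Mrc1 had 63.3, 34.5 and 60.6 CPM on day 21, against 15.1, 13.4 and 14.3 CPM on day 14 (log2 change 1.77 ± 0.24 (SE), adjusted p = 0.00231). Adgre1, which encodes F4/80, had 37.9, 23.8 and 30.3 CPM on day 21, against 8.5, 9.86 and 11.2 CPM on day 14 (log2 change 1.53 ± 0.23 (SE), adjusted p = 0.00278). Every day 21 gland exceeded every day 14 gland in both. C1qb (1.41 ± 0.23) and Mpeg1 (1.88 ± 0.32) rose as well. Of antigen presentation genes, 6 of 9 rose and 0 fell on the non-milk scale (median log2 change 1.12), and 4 rose and 0 fell on the median-of-ratios scale (median 0.67), led by the class II gene H2-Aa (1.38 ± 0.22). Mast cell markers were low in level. Of the mast cell and eosinophil list, 5 of 5 rose and 0 fell on the non-milk scale (median log2 change 1.41), and 1 rose and 0 fell on the median-of-ratios scale (median 1.08). The chymase Cma1 had 7.73, 4.29 and 9 CPM on day 21, against 1.97, 2.18 and 1.13 CPM on day 14 (log2 change 1.51 ± 0.32 (SE), adjusted p = 0.00859). Calls for the list members Mcpt4, Tpsb2 and Cpa3 were lost without NZB day 14 mouse 2 (limma adjusted p 0.0638 to 0.102). Of 5 tested neutrophil genes 1 rose, Csf3r (1.23 ± 0.39; median-of-ratios adjusted p = 0.164), and 7 of the 12 listed were too low to test. In the B cell list 0 of 7 were called on either scale, and summed levels were 31.5, 25.4 and 27.6 CPM on day 21, against 165, 41.9 and 15.2 CPM on day 14, with day 14 mouse 1 far above its group. In the T and NK cell list 1 of 11 rose, the granzyme Gzma (2.24 ± 0.39), and in the plasma cell list 1 of 9, Sdc1 (1.25 ± 0.22), which epithelial cells also express. Leaving out NZB day 21 mouse 1 or 2 or NZB day 14 mouse 2 or 3 ended the call for Csf3r (adjusted p 0.0717 to 0.126).

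Interferon-stimulated genes, which cells switch on in response to interferons, mostly rose on the non-milk scale. There 30.6% of all genes were called higher, and 6.23% on the median-of-ratios scale. Of the list, 17 of 24 rose and 0 fell on the non-milk scale (median log2 change 1.07), and 6 rose and 0 fell on the median-of-ratios scale (median 0.63). Gbp2, a guanylate-binding protein, had 128, 53.3 and 71.8 CPM on day 21, against 15.3, 8.17 and 18.2 CPM on day 14 (log2 change 2.49 ± 0.35 (SE), adjusted p = 0.00253). Oasl2, of the oligoadenylate synthetase family, had 109, 47.3 and 35.2 CPM on day 21, against 12.7, 10.5 and 16.6 CPM on day 14 (log2 change 2.04 ± 0.37 (SE), adjusted p = 0.00554). Both were highest in day 21 mouse 1, the mouse with the highest adipocyte, fibroblast and macrophage sums, and the part of those cells in this result was not tested. Gbp3 (1.86 ± 0.28) and Ifit2 (1.98 ± 0.34) rose on both scales. The interferon-stimulated response element was searched as GAAA, any 2 bases and GAAA on both strands. It was present in the 250 bases before the start of 10 of 19 genes of the list with an entry (52.6%). Counted by gene in the same way, it was present in 3.59% of genes that rose, 3.09% of genes that fell and 3.29% of all tested genes. Of all single promoters 2.98% held it. Promoters of 3 genes are shown, Gbp2 (chr3:142620413-142620662, plus strand), Ifit3 (chr19:34583279-34583528, plus strand) and Isg15 (chr4:156200819-156201068, minus strand), with matches in capitals, which can overlap one another.
Gbp2: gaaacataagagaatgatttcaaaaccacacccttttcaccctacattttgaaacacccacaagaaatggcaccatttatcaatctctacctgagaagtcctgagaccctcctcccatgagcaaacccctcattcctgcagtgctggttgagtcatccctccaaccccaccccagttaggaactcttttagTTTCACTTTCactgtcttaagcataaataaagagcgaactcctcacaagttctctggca
Ifit3: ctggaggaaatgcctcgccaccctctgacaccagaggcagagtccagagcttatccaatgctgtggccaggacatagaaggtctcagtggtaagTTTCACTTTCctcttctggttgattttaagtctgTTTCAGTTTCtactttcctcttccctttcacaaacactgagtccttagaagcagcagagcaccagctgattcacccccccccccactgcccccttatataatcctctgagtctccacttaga
Isg15: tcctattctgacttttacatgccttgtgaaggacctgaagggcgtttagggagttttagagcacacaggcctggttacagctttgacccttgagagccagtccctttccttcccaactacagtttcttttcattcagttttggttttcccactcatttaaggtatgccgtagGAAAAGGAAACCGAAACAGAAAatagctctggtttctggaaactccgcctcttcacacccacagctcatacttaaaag
Matches begin at base -59 in Gbp2, at -156 and -122 in Ifit3 and at -78, -72 and -66 in Isg15, counted from the gene start. Gbp2 and Ifit3 (log2 change 1.96) were called higher, and Isg15 (0.75), with 3 overlapping matches, was not called.

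The remaining cell type lists and proliferation genes differed in how many members passed the test, beside 36.3% of all genes called on the non-milk scale. Of endothelial genes, 3 of 12 rose and 0 fell on the non-milk scale (median log2 change 0.22), and 0 rose and 1 fell on the median-of-ratios scale (median -0.20). Tek (0.84 ± 0.23), Vwf (1.14 ± 0.36) and Pecam1 (0.58 ± 0.20) were the 3 that rose on the non-milk scale. Of myoepithelial genes, 2 of 10 rose and 0 fell on the non-milk scale (median log2 change 0.45), and 1 rose and 0 fell on the median-of-ratios scale (median 0.00). Trp63, the transcription factor of basal cells, had 86.8, 62.5 and 36.9 CPM on day 21, against 11.5, 17.1 and 24 CPM on day 14 (log2 change 1.74 ± 0.34 (SE), adjusted p = 0.00659). Of hormone-sensing epithelial genes, 3 of 7 rose and 1 fell on the non-milk scale (median log2 change 0.68), and 1 rose and 1 fell on the median-of-ratios scale (median 0.26). Pgr, the progesterone receptor, had 53.9, 31 and 18.4 CPM on day 21, against 5.13, 4.72 and 6.77 CPM on day 14 (log2 change 2.32 ± 0.35 (SE), adjusted p = 0.00305), and both it and Trp63 were highest in day 21 mouse 1. Esr1, the oestrogen receptor, fell (-0.79 ± 0.19). Of luminal progenitor genes, 1 of 9 rose and 1 fell on the non-milk scale (median log2 change 0.63), and 0 rose and 3 fell on the median-of-ratios scale (median 0.18), with Cd14 up and Tspan8 down (-0.96 ± 0.28). Of proliferation genes, 10 of 22 rose and 0 fell on the non-milk scale (median log2 change 0.70), and 1 rose and 1 fell on the median-of-ratios scale (median 0.30). Mcm6, a helicase subunit for DNA replication, had 18.8, 20.7 and 18.6 CPM on day 21, against 6.46, 4.37 and 5.84 CPM on day 14 (log2 change 1.65 ± 0.22 (SE), adjusted p = 0.00215). Calls for the list members Cdk1, Mcm4 and Bub1 were lost without NZB day 21 mouse 2 (limma adjusted p 0.058 to 0.0724). Of blood genes, 0 of 5 rose and 4 fell on the non-milk scale (median log2 change -1.24), and 0 rose and 4 fell on the median-of-ratios scale (median -1.69). The globin Hbb-bs had 25.5, 31.6 and 30.1 CPM on day 21, against 104, 68.8 and 59.6 CPM on day 14 (log2 change -1.35 ± 0.22 (SE), adjusted p = 0.00401), highest in day 14 mouse 1. The adult globin genes are near-identical copies whose reads can be split. Of the skeletal muscle genes 3 of 4 rose on the non-milk scale and 1 on the median-of-ratios scale. Acta1, whose levels are given above, was one of the 3 (log2 change 4.07 ± 1.39 (SE), adjusted p = 0.046; median-of-ratios adjusted p = 0.0987). Of 2 tested skin genes none was called. At least 1 of the calls for Tek, Vwf, Pecam1, Esr1, Tspan8 and Acta1 was lost without NZB day 21 mouse 1, 2 or 3 or NZB day 14 mouse 1, 2 or 3 (adjusted p 0.0537 to 0.162).

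**Figure D4:**
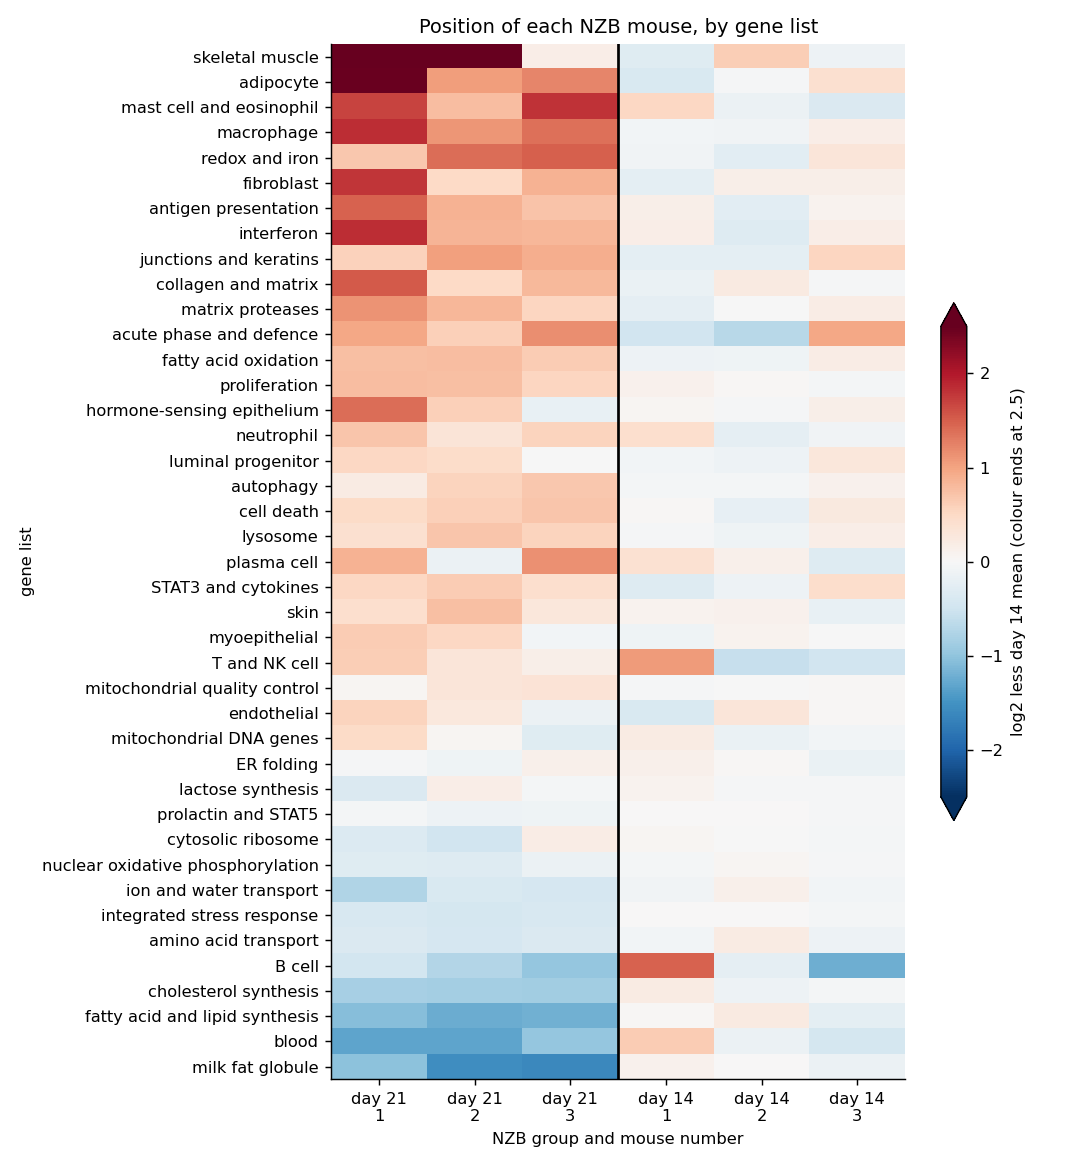
Position of each NZB gland (columns, day 21 left of the line and day 14 right of it, with mouse number) for each gene list (rows). Colour gives the median over the list of log2(CPM + 1) on the non-milk scale less the mean of the 3 day 14 mice, and ends at 2.5; day 21 mouse 1 is the reddest in adipocyte (2.47), fibroblast (1.78), macrophage (1.85) and interferon (1.85) lists, skeletal muscle is high in day 21 mice 1 (4.12) and 2 (4.85) only, and day 14 mouse 3 is high in the acute phase list (0.96).

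Set beside the other stages of NZB glands, the genes that changed did not all take the non-lactating level. Slc34a2 had 43.7, 22 and 37 CPM without lactation, 5683, 6416 and 5975 on day 8, 5792, 5210.1 and 2834 on day 14 and 156, 46 and 30.6 on day 21. Atp2b2 had 17.8, 10.1 and 16.6 CPM without lactation, 1985, 2710.4 and 2174 on day 8, 1232, 2029.8 and 491 on day 14 and 18.3, 19.1 and 16.8 on day 21. In both, the day 21 glands lay near the non-lactating level and far from the lactating one. Olah had 9.7, 6.15 and 11.4 CPM without lactation, 1786, 1154 and 1544 on day 8, 849.7, 1059 and 571 on day 14 and 108, 51.2 and 30.3 on day 21. Gjb1 had 1.59, 0.49 and 1.43 CPM without lactation, 150.2, 156 and 143 on day 8, 102, 124 and 108 on day 14 and 11.1, 7.71 and 7.75 on day 21. In these genes every day 21 gland lay between the non-lactating and the day 14 glands. Cpt1a had 55, 66.5 and 52.9 CPM without lactation, 11.2, 11.9 and 10.9 on day 8, 9.06, 9.37 and 23 on day 14 and 82, 104 and 103 on day 21, so that its day 21 glands exceeded the non-lactating ones too. Cldn1 had 2.12, 4.24 and 5.83 CPM without lactation, 3.1, 1.92 and 2 on day 8, 6.95, 2.68 and 24.5 on day 14 and 288, 139 and 217 on day 21. In Cldn1, and likewise in Cyp2b19, with 1.48, 2.32 and 2.25 CPM without lactation and 1.48, 1.99 and 1.26 on day 8, every day 21 gland exceeded every gland of the other 3 stages. Ltf had 22.9, 34.9 and 19.7 CPM without lactation, 3479.7, 1309 and 859 on day 8, 1311, 1291 and 6359 on day 14 and 8082, 10914 and 14937 on day 21, and its day 21 glands exceeded those of all other stages. These are levels on the non-milk scale, given as a description with no test.

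The same interval in C57 glands gave no call by limma among 14565 tested genes (0.0%), with 51 at an unadjusted p under 0.05, and none by limma voom on recovered reads. Deviations from the group means of same-numbered C57 mice of days 21 and 14 correlated across genes by 0.668, 0.7 and 0.0889 for mice 1, 2 and 3. The fits, that of the difference included, treated these mice as independent, and whether same-numbered C57 samples are related was not tested. Fewer genes lay under 0.05 than independent groups without any change would give on average. The absence of calls therefore does not show that C57 glands stayed the same. With replicate number as a block, limma gave 0 calls in C57 glands and 150 genes at an unadjusted p under 0.05. The difference between the genotypes, the NZB change less the C57 change over 12 glands, was called for 1394 of 15697 genes (8.88%), of which 1073 were higher (6.84%) and 321 lower (2.04%). On the median-of-ratios scale 702 were called (4.47%), 177 higher (1.13%) and 525 lower (3.34%). Leaving out 1 mouse gave 352 to 3240 calls of a difference. The lowest counts were 352 without NZB day 14 mouse 2, 405 without C57 day 21 mouse 2, 480 without C57 day 14 mouse 1 and 486 without C57 day 21 mouse 3. Counts of 561, 615 and 610 followed without NZB day 21 mouse 2, NZB day 14 mouse 1 and C57 day 14 mouse 3, and without C57 day 21 mouse 1 the count was 3240.

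Several genes that fell in NZB glands had a change that differed from that in C57 glands. Slc34a2 had 4611, 5377 and 5000.2 CPM in C57 day 21 glands, against 4469, 5293 and 4807 CPM in C57 day 14 glands (NZB change less C57 change -6.20 ± 0.62 (SE), adjusted p = 0.000292). Gjb1 had 80.6, 114 and 129 CPM in C57 day 21 glands, against 111, 125 and 88.5 CPM in C57 day 14 glands (difference of log2 changes -3.51 ± 0.29 (SE), adjusted p = 4.47e-05). Olah had 917, 1279 and 1279 CPM in C57 day 21 glands, against 831, 1239 and 1356 CPM in C57 day 14 glands (difference -3.87 ± 0.52 (SE), adjusted p = 0.00175). All 6 C57 glands lay above the NZB day 21 glands in these 3 genes. Some other genes that fell in NZB glands passed no test of the difference, among them Xdh (-1.18 ± 0.36 (SE), adjusted p = 0.0526) and Fasn (-1.41 ± 0.47 (SE), adjusted p = 0.0711), and of 10 milk fat globule genes 4 were called. Among genes that rose in NZB glands, Cpt1a had 9.65, 9.9 and 7.99 CPM in C57 day 21 glands, against 9.09, 9.27 and 10 CPM in C57 day 14 glands (difference 2.88 ± 0.40 (SE), adjusted p = 0.00213). Hmox1 had 22.5, 11.2 and 17.4 CPM in C57 day 21 glands, against 23.5, 12 and 16.9 CPM in C57 day 14 glands (difference 4.02 ± 0.71 (SE), adjusted p = 0.0075). Cyp2b19 had 3.63, 1.61 and 2.69 CPM in C57 day 21 glands, against 2.77, 0.98 and 3.42 CPM in C57 day 14 glands (difference 4.40 ± 0.72 (SE), adjusted p = 0.00549). In these 3 all C57 glands lay below the NZB day 21 glands. Among the lists, on the non-milk scale, differences were called for 11 of 24 lipid synthesis genes and 11 of 23 cholesterol synthesis genes. All of these were lower in the NZB change. Differences were also called, all higher, for 8 of 13 macrophage, 8 of 25 fatty acid oxidation and 8 of 25 collagen genes. Over all genes 2.04% were called lower and 6.84% higher. Several genes that rose in NZB glands passed no test of the difference. Igfbp5 had 196, 91 and 78 CPM in C57 day 21 glands, against 208, 114 and 120.0 CPM in C57 day 14 glands (difference 4.01 ± 1.23 (SE), adjusted p = 0.0546). Cldn1 had 71, 1.95 and 9.3 CPM in C57 day 21 glands, against 88, 1.89 and 15.7 CPM in C57 day 14 glands (difference 4.83 ± 1.62 (SE), adjusted p = 0.0714). In Cldn1 the first C57 mouse of each day stood well above the other 2. Wfdc17 (4.73 ± 1.51 (SE), adjusted p = 0.0618), Basp1 (4.50 ± 1.48 (SE), adjusted p = 0.0677) and Muc4 (5.25 ± 1.67 (SE), adjusted p = 0.0614) were also without a called difference.

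**Figure D5:**
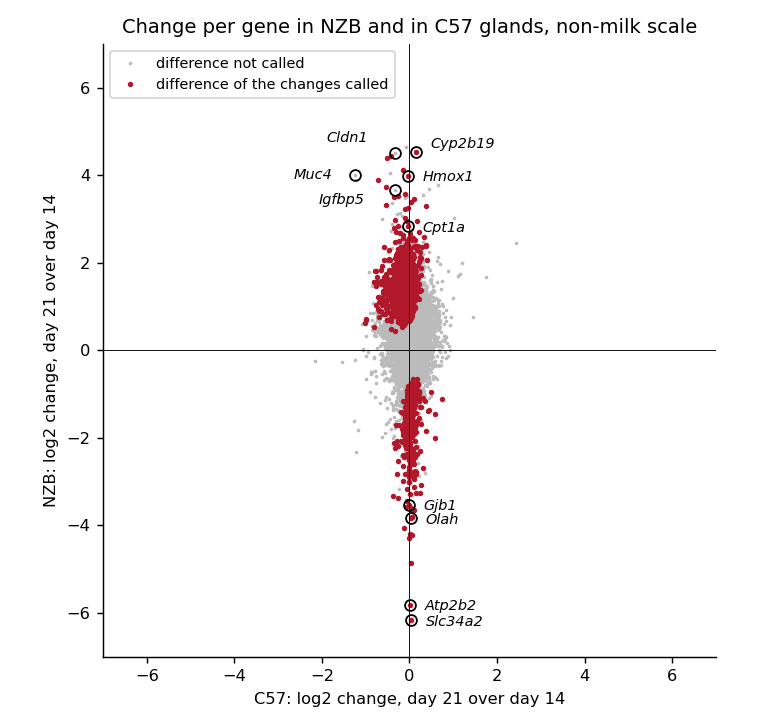
Log2 change per gene, day 21 over day 14 on the non-milk scale, in NZB glands (y axis) and in C57 glands (x axis), for 14376 genes tested in both. Red points are the 1338 of them whose change differed between genotypes at an adjusted p under 0.05 by limma. Circled genes are named in the text, and reach an NZB change of -6.16 for Slc34a2 and 4.54 for Cyp2b19.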

How the data were processed

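Polyadenylated RNA of whole inguinal mammary glands was sequenced, and the authors deposited 1 table of 32544 gene symbols by 48 columns, a pair per mouse. Its values are log10 values, and log10(CPM + 1) as deposited was turned back into CPM, which summed to 1000000 in each column. Whole reads were recovered for 100.0% of values (tolerance 0.05 read), which gave the depths. The builds GRCm38 and mm10 are named per the submitters' processing notes; aligner, counter, annotation and strand were not given in the sources used here, so overlapping antisense genes cannot be told apart. Of the symbols, 27 that had become calendar dates were dropped, and no column with an unknown sample was used. The columns of a mouse were averaged in CPM.

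After removal of the 8 milk protein genes the remainder was rescaled to 1000000 CPM. Genes above 1 CPM in at least 3 samples were tested on log2(CPM + 1), which understates the change of low genes, with limma 3.58.1 in R 4.3.3 (trended moderated variance, Benjamini-Hochberg adjustment, threshold 0.05). The samples of the NZB comparison, the C57 comparison or both, for the difference, entered each fit. The milk share was compared by an exact permutation test. Tables and figures were made with Python 3.11.15 (matplotlib 3.10.9, scipy 1.17.1, pandas 2.3.3). The labels number 3 females per group without stating cultures or litters. The p-values set group differences against the spread between these mice and treat them as independent, which was not tested. Tested on simulated data for the NZB comparison (14705 genes), the fit called 79% of 2-fold and 100% of 4-fold changes, with 23 of 202 calls false. The false share in that simulation exceeded the threshold of 0.05. For the difference (15172 genes) it called 25% of 2-fold and 98% of 4-fold changes, with 6 of 129 calls false. Both simulations started from the mean NZB day 14 profile, with 2-fold changes in 100 genes and 4-fold changes in 100, as many up as down. Unlike the data they held no broad shift and no outlying mouse, so the false call rate of these data was not tested.

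Named were the 10 largest increases and decreases among called genes without overlap between groups and with at least 4 CPM in the higher group, up to 4 members of each list by smallest adjusted p and called members against their list's majority, and a fixed set of lactation and involution genes. Some members of the lists are not reported here. Unnamed gene models, antigen receptor segments and pseudogenes were left out. Ifit3, Isg15 and the promoters shown were chosen after their values and motif matches were seen. The members and lists were chosen with earlier results of these data known. Alternatives were other scalings, filters, pseudocounts, single columns, sample weights, a wider milk list, a replicate block, all 24 samples in the fit, leaving out each mouse, and, chosen after seeing the data, limma voom on recovered reads.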

Additional observations from a re-analysis of the deposited data

Results flagged for a closer look

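The change between days 14 and 21 differed between the genotypes, by limma's test of the difference over 12 glands, for 1394 genes, 8.88% of those tested. The median-of-ratios scale gave 702 such calls, and leaving out 1 mouse gave 352 to 3240. Of the 54 genes of the largest changes and the fixed set 26 had a called difference, the milk protein genes among them on the deposited scale. Of the 54, 20 had been picked for the size of their NZB change, so a large difference follows in part from that choice. Several calls lay near the threshold, with limma adjusted p of 0.0404 for Akr1b8, 0.0419 for Krt18, 0.0427 for Slc5a8 and 0.0484 for Ltf. Values are the log2 change in NZB glands less that in C57 glands. Of the genes with the largest increases the difference was 4.40 for Cyp2b19, 4.86 for Slc5a8, 4.90 for Dmkn, 4.20 for Cyp2d10, 4.27 for Akr1b8 and 4.02 for Hmox1. Of the genes with the largest decreases the difference was -6.20 for Slc34a2, -5.83 for Atp2b2, -4.90 for Lao1, -4.28 for Gsdmc, -4.26 for Atp12a, -4.20 for Ccl28, -3.94 for Crhr1, -3.87 for Olah, -3.87 for Cidea and -3.85 for Pthlh. Of the fixed set the difference was -3.30 for Fabp3 and -1.86 for Btn1a1. On the deposited scale, where 11803 of 14457 genes had a called difference, the milk protein genes had -1.89 for Csn2, -1.79 for Wap and -0.86 for Lalba. Other genes of the fixed set had 2.48 for Osmr, 2.55 for Ltf, 2.37 for Ctsl, 2.08 for Krt8 and 2.27 for Krt18. Osmr encodes a cytokine receptor, Ltf lactoferrin, Ctsl a lysosomal protease, and Krt8 and Krt18 keratins of luminal cells.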

How the results depend on the processing

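In NZB glands 5498 calls became 13298 on the deposited scale (13149 higher, 149 lower), 2533 on the median-of-ratios scale (944 higher, 1589 lower) and 2077 by voom with median-of-ratios factors (615 higher, 1462 lower); leaving out a mouse gave 2483 to 4793. In C57 glands the first column alone gave 2 calls, every other setting and every left-out mouse 0. The 1394 differences between genotypes became 11803 on the deposited scale, 702 with median-of-ratios, 652 with no filter, 4841 with sample weights, 604 by voom with median-of-ratios factors and 862 with the wider milk list; leaving out a mouse gave 352 to 3240. Milk protein calls ranged from 3 to 7 of 8 and the share difference from -48.63 to -42.63 points on leaving out a mouse.

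Signs reversed on the deposited scale for Stat5a (1.06), Stat5b (0.54), Elf5 (0.74), Xdh (0.062), Hspa5 (0.70), Atf4 (1.01) and Sirt3 (0.78), where all CPM outside the milk genes move up by construction. On leaving out a mouse Stat5a ranged from -0.412 to 0.026, positive without NZB day 14 mouse 2. Prlr was at -0.34 with median-of-ratios, -0.34 by voom with those factors, -0.048 with the wider milk list, and ranged from -0.023 (without NZB day 21 mouse 1) to 0.273 on leaving out a mouse. Plin2 was at -0.11 and -0.10 in the same 2 median-of-ratios fits, and Glycam1 at -0.63 per 1000000 counts outside the milk genes. None of Stat5a, Elf5, Atf4, Sirt3, Prlr, Plin2 and Glycam1 was called in the fit reported. Over 54 named genes and all settings, 906 of 1053 values kept direction and call, 108 lost the call, 24 gained one and 15 changed sign. Counts of calls per list were less stable. Leaving out a mouse moved the count, beyond a fixed ratio, in 8 to 27 of 41 lists. It moved in 27 without NZB day 14 mouse 2, 22 without NZB day 21 mouse 2 and 20 without NZB day 14 mouse 1. With median-of-ratios 21 lists moved, and by voom with those factors 28.

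Same-numbered NZB mice did not deviate together (correlations 0.000342, 0.053 and 0.091), so the numbers do not pair them; mice 2 and 3 correlated best with their own number and mouse 1 did not. With the replicate block the counts were 5011 in NZB, 0 in C57 and 1971 for the difference, 5 milk protein genes were called, and the share difference of -45.82 had an exact permutation p of 0.25, the smallest that 3 pairs allow. The planned edgeR and DESeq2 fits were not run; limma voom was run on the recovered reads instead. Depth limits mainly genes near 1 CPM, and 3 mice a day limit the test of the difference.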
